A study of Ovis aries with 6 samples.

Results

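miR-128 was examined in small RNA libraries from the longissimus muscle, the long muscle of the back, of 2 sheep breeds. Its members were taken by name from the deposited count table: after removal of the sheep, rat, mouse or human prefix, every name equal to miR-128, miR-128a or miR-128b, or one of these with a suffix for the arm or the locus, was kept. This gave 3 of 10430 names, miR-128-3p, miR-128-1-5p and miR-128-2-5p, which together held 7 of the 11161 rows, and no row was named miR-128a or miR-128b. Each name was represented by its row of highest total. The 6 libraries came from Qianhua Mutton Merino (QHMM, 3 libraries) and Small Tail Han (STH, 3 libraries) sheep kept under natural conditions, with no further treatment given in the labels. The labels give neither age nor sex, and they do not say whether each library is a separate animal, so a p-value covers no more than the spread from library to library, which may be technical. The tissue label was matched by its markers, since miR-1 (315840 to 419493 CPM) and miR-206 (28539 to 40746 CPM) of muscle fibres were among the 4 most abundant names.

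The miR-128 hairpin is cut into a 3p arm, which is loaded into the silencing complex and represses messenger RNAs that match its seed, and a 5p arm, most of which is degraded. Mammals carry a pair of miR-128 genes, miR-128-1 in an intron of R3HDM1 and miR-128-2 in an intron of ARPP21, which give the same 3p arm but different 5p arms. miR-128 is best known from the brain, where it is abundant in neurons. Outside the brain it has been linked to cholesterol transport and insulin signaling, and in muscle cells to the myostatin pathway, which limits muscle mass.

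The sequences show which rows can be told apart. They are printed 5′ to 3′ as deposited, with T for U, and capitals mark the seed, bases 2 to 8.
miR-128-3p, chromosome 2 and chromosome 19: tCACAGTGaaccggtctctt
miR-128-3p, chromosome 4: tCACAGTGaacaggtctcta
miR-128-1-5p, chromosome 2: cGGGGCCGtagcactgtctgag
miR-128-2-5p, chromosome 19: gGGGGCCGaggcactgtccgag
unnamed locus, chromosome 8: tCACAGTGaacggtctc
miR-27a: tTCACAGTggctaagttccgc
miR-27b-3p: tTCACAGTggctaagttctgca

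The submitters' notes name the sheep build Oar_v3.1, and the table gives the chromosome of a predicted locus without start, end or strand. The locus on chromosome 2 paired miR-128-3p with miR-128-1-5p, and the locus on chromosome 19 paired it with miR-128-2-5p. In RefSeq's table of sheep genes (assembly ARS-UI_Ramb_v3.0), R3HDM1 and ARPP21 lie on chromosomes with the same numbers. The 3p arm was identical at both loci over its 20 nt. Both 5p arms shared 18 of 22 nt and differed by C1G, T9A, A10G and T19C (base of miR-128-1-5p, position from the 5′ end, base of miR-128-2-5p). Only the 5p arms can therefore separate the loci by sequence. miR-27a and miR-27b, which have been tied to myostatin and to fat metabolism, carry the first 8 bases of miR-128-3p, TCACAGTG, shifted by 1 position, at bases 2 to 9.

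miR-128-3p was among the abundant miRNAs of this muscle. It had 23733, 13983 and 18477 counts in QHMM replicates 1, 2 and 3, and 16745, 13083 and 13505 counts in STH replicates 1, 2 and 3. As CPM, counts scaled to a common library total over 1 row per name, these were 3145, 2509 and 2483 CPM in QHMM and 2287, 2119 and 1703 CPM in STH. Every QHMM library lay above every STH library, and the closest pair, QHMM replicate 3 and STH replicate 1, stood less than 1 SD of either breed apart. The mean was 2374 ± 479 CPM (SD, n = 6), the 41st place of 10430 names. Its neighbors in this order, miR-193b-3p at 2627 ± 871 CPM and miR-24-3p at 2348 ± 407 CPM (SD, n = 6), differed from it by less than the spread between libraries.

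Both 5p arms were counted at a very low level. miR-128-1-5p was counted 8, 1 and 3 times in QHMM and 4, 4 and 2 times in STH. For miR-128-2-5p these counts were 3, 6 and 11 in QHMM and 22, 12 and 7 in STH. The breeds overlapped for both arms, and QHMM replicate 1 was the only library with more counts of miR-128-1-5p than of miR-128-2-5p. Their means were 0.515 ± 0.319 CPM and 1.46 ± 0.920 CPM (SD, n = 6), places 1820 and 1221. A single count, as for miR-128-1-5p in QHMM replicate 2, has an exact Poisson 95% interval of 0.0253 to 5.57 counts, and the 22 counts of miR-128-2-5p in STH replicate 1 one of 13.8 to 33.3. These intervals cover counting error only.

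**Figure D1:**
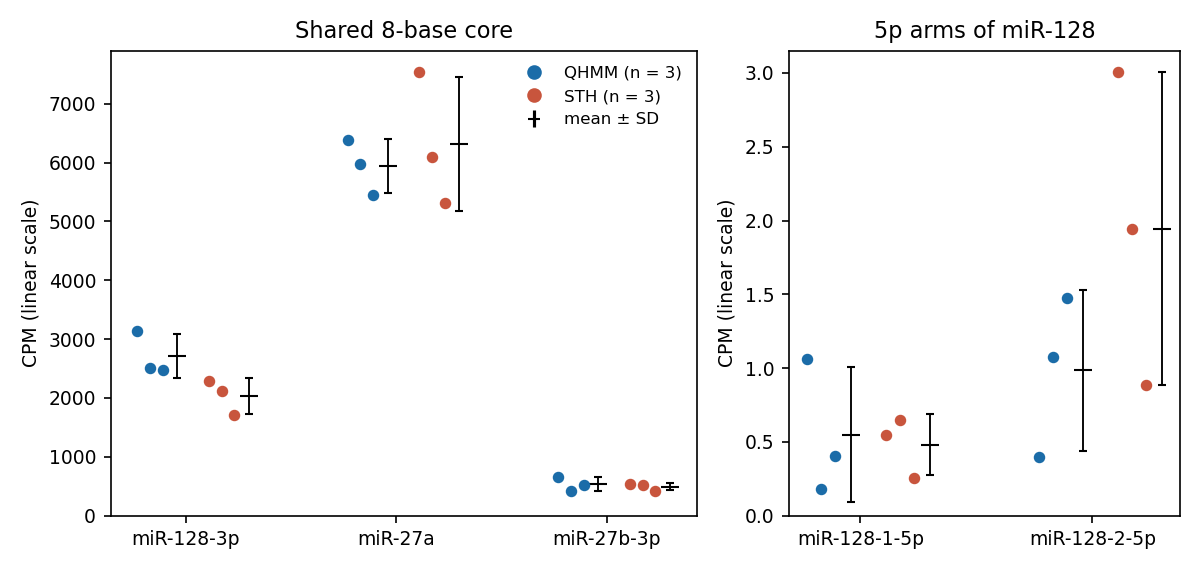
CPM on linear axes from 0 of miR-128-3p, miR-27a and miR-27b-3p (left) and of both 5p arms of miR-128 (right), with 1 point per QHMM or STH library and the breed mean ± SD (n = 3) as a mark with a bar. miR-128-3p lies between miR-27a and miR-27b-3p, its QHMM points (2483 to 3145 CPM) lie above its STH points (1703 to 2287 CPM), and the 5p arms range from 0.179 to 3.005 CPM.

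No member of miR-128 differed between the breeds past the threshold. In the comparison across all names (edgeR, Benjamini-Hochberg adjusted p under 0.05), 2 of the 3 members passed the filter on low counts and 0 were called, where 28 of 1274 names, 2.2%, were called, of which QHMM was higher in 4 and STH in 24. At an unadjusted p under 0.05 there were 0 of the 2 members and 174 of the 1274 names, and DESeq2 called 0 of the members. miR-128-3p had 2712 ± 375 CPM in QHMM and 2037 ± 301 CPM in STH (SD, n = 3), a fitted fold of 1.32 with a 95% interval of 0.945 to 1.84. Its log2 fold change was 0.40 (standard error 0.22, adjusted p = 0.453 from edgeR). This interval holds no change as well as a QHMM level 1.84-fold that of STH. Libraries that did not overlap, with QHMM higher, were found for 8.48% of the names tested, so the separation of miR-128-3p is one of 108 such cases. The separation was also present with CPM of the total over all rows and with TMM factors.

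miR-128-2-5p leaned the other way, with 0.984 ± 0.546 CPM in QHMM and 1.94 ± 1.06 CPM in STH (SD, n = 3). Its log2 fold change was -0.97 (standard error 0.59, 95% interval -2.23 to 0.29, adjusted p = 0.492 from edgeR), and the breeds overlapped. miR-128-1-5p had 0.548 ± 0.458 CPM in QHMM and 0.482 ± 0.206 CPM in STH (SD, n = 3), did not pass the filter, and without a filter had 0.29 with an interval of -1.34 to 1.92 (adjusted p = 0.914 from edgeR). Both intervals include no change.

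Summed levels of 2 marker lists of other cell types also lay apart between the breeds, and both stand here beside miR-128-3p. Of their 9 markers 0 passed the test (edgeR), where 28 of the 1274 names, 2.2%, did. For single names, no overlap in either direction was found for 219 of the 1274 tested, and with QHMM higher for 108, 8.48%. The 5 white blood cell markers summed to 1787 to 1962 CPM in QHMM and 1186 to 1461 CPM in STH, and the 4 red blood cell markers to 18967 to 84306 CPM in QHMM, with its highest value in replicate 3, and 7299 to 13838 CPM in STH. Most of the red cell sum was miR-451-5p, with 18703 to 82384 CPM in QHMM and 7083 to 13597 CPM in STH. None of these 9 markers was at 0 in any library, and 5 of the 9 overlapped between the breeds one by one, with miR-223-3p (log2 fold change -0.23) and miR-155-5p (-0.35) against the direction of the white cell sum. The 6 muscle fibre markers summed to 517816 to 546371 CPM in QHMM and 450124 to 536352 CPM in STH, where only miR-133b-3p was at 0 in some libraries, and both endothelial markers to 12780 to 27420 CPM in QHMM and 23283 to 25303 CPM in STH, so that these sums overlapped. Fewer cells of a type and less RNA per cell cannot be told apart in bulk muscle, and the part of these cells in the values of miR-128-3p was not tested. Without QHMM replicate 3 the log2 fold change of miR-128-3p was 0.44, where leaving out each library in turn gave 0.27 to 0.47. The red cell sums of the other QHMM libraries also lay above those of STH, so this fit does not test the part of red cells.

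miR-128 is known from neurons, and the neuron markers were far below it. miR-124-3p, the most neuron-specific of them, had 0.179 to 1.30 CPM over the 6 libraries. miR-9-5p, of neural progenitors and neurons, had 1.97 to 3.78 CPM, and miR-138-5p 1.91 to 4.41 CPM. miR-137-3p and miR-129-5p were at 0 in some libraries, and of the 9 markers none was at 0 in every library. The most abundant, miR-218-5p, which motor neurons and vessel walls also make, had 70.9 to 153 CPM. The other 8 markers summed to 8.43 to 15.1 CPM in QHMM and 8.42 to 15.3 CPM in STH, and miR-128-3p was 111.6 times their sum in the library with the lowest such ratio, STH replicate 3. All 9 markers together ran from 90.0 to 152 CPM in QHMM and from 79.5 to 169 CPM in STH. Of the 5 that were tested 0 passed, where 28 of all 1274 names, 2.2%, did.

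**Figure D2:**
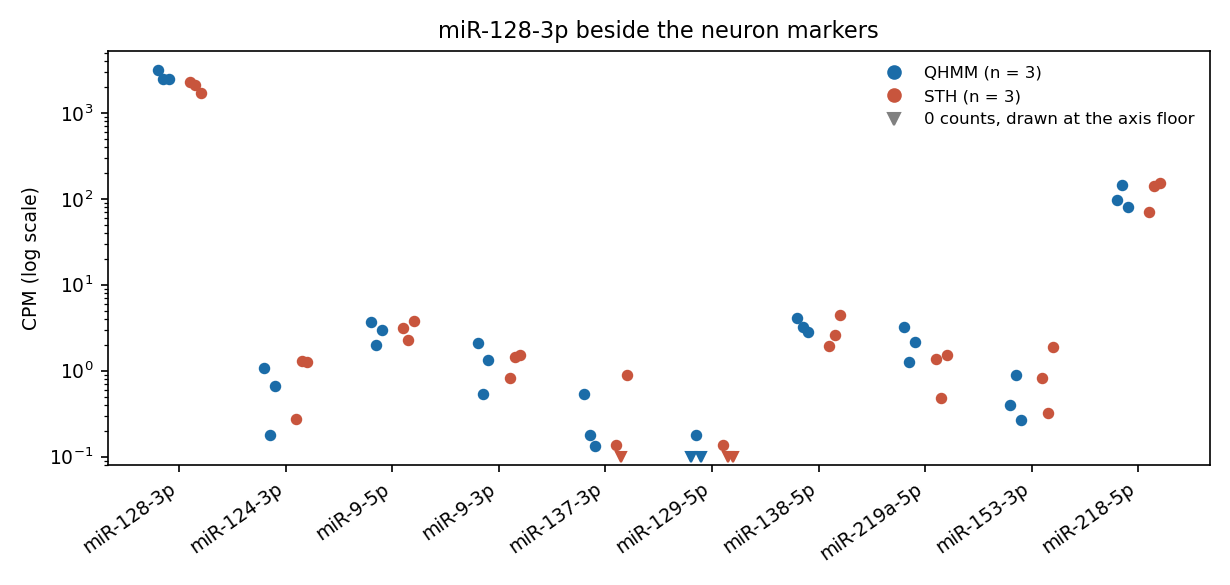
CPM on a log axis of miR-128-3p and of the 9 neuron markers in each library of QHMM and STH, where points are single libraries and triangles mark libraries with 0 counts, drawn at the floor of the axis. miR-128-3p lies at 1703 CPM or higher, miR-218-5p at 70.9 to 153 CPM, and the other markers do not exceed 4.41 CPM.

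Both loci were listed with the same mature sequence but not with the same counts. The chromosome 2 row, which stands for miR-128-3p above, held 99526 counts over the 6 libraries. The chromosome 19 row held 18501, 10446 and 13934 in QHMM and 12933, 10246 and 10031 in STH, 76091 counts in total. The ratio of chromosome 2 to chromosome 19 lay between 1.28 and 1.35 in all 6 libraries, with a mean of 1.32 ± 0.0293 in QHMM and 1.31 ± 0.0361 in STH (SD, n = 3), a difference below the spread. The rule that split or repeated reads between these rows is not given in the sources used here, so this ratio is not a measure of the output of each gene.

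A further predicted locus was named miR-128-3p, on chromosome 4, and differed from the main sequence by C12A and T20A (base of the main sequence, position from its 5′ end, base of the chromosome 4 row). Its counts were 39, 30 and 52 in QHMM and 36, 32 and 23 in STH. This was 16.4 to 28.1 counts per 10000 counts of the chromosome 2 row, with 22.01 ± 5.87 in QHMM and 21.0 ± 3.74 in STH (SD, n = 3). The other arm of this locus, which carried no known name, had 2 counts in STH replicate 1 and 0 elsewhere. The seed is the same as that of miR-128-3p, and the breeds overlapped.

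One row without a miRNA name also carried the seed at high likeness. The 17 nt of the locus on chromosome 8 equal the first 18 nt of miR-128-3p with 1 c left out at position 11 or 12, which are both c. This row was counted 71, 39 and 65 times in QHMM and 75, 43 and 27 times in STH, or 20.0 to 44.8 counts per 10000 counts of the chromosome 2 row, highest in STH replicate 1 and lowest in STH replicate 3. Whether these are reads of a separate locus or of miR-128-3p was not tested.

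**Figure D3:**
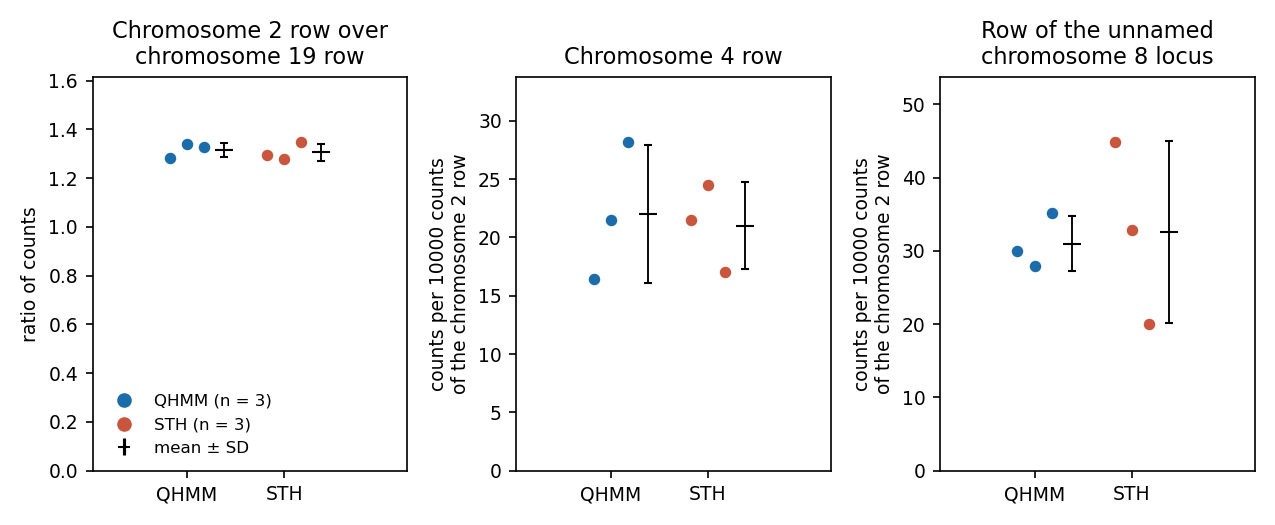
Ratio of the chromosome 2 to the chromosome 19 row of miR-128-3p (left), and counts of the chromosome 4 row (middle) and of the unnamed chromosome 8 row (right) per 10000 counts of the chromosome 2 row, on linear axes from 0. Each library is 1 point, and a mark with a bar gives the breed mean ± SD (n = 3). The ratio of both main loci stays between 1.28 and 1.35, while the minor rows range from 16.4 to 28.1 and from 20.0 to 44.8.

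In all, 9 rows carried the seed CACAGTG at bases 2 to 8, with 176209 counts in total. The chromosome 2 row took 56.5% of them and the chromosome 19 row 43.2%, and the other 7 rows 0.336%. Among these 7, the rat sequence of miR-128-3p, 1 base longer than the sheep rows, had 2 counts in all libraries, and 4 rows of other names had 58 counts together, 51 of them in miR-6539. The rat sequence of miR-128-2-5p, the second row of that name, had 7 counts.

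The 3p arm far outweighed the 5p arms. Per count of a 5p arm there were 2158, 1998 and 1320 counts of miR-128-3p in QHMM replicates 1, 2 and 3. In STH replicates 1, 2 and 3 there were 644, 818 and 1501. STH replicates 1 and 2 were the lowest of the 6, and STH replicate 3 lay above QHMM replicate 3. These ratios use the chromosome 2 row alone. If reads of the shared sequence were divided between the chromosome 2 and chromosome 19 rows, which is not known, the sum of both rows gives 1141 to 3839 counts per 5p count, with the libraries in the same order. Of the counts of the chromosome 2 row and the 5p arms together, the 5p arms made up 0.0463% in QHMM replicate 1 (Wilson 95% interval 0.0259% to 0.0829%). In STH replicate 1 they made up 0.155% (0.106% to 0.227%). These were the lowest and the highest share. Over the breeds the log2 ratio of the 3p arm to the summed 5p arms, with 0.5 added to each count, was 10.7 ± 0.367 in QHMM and 9.80 ± 0.603 in STH (SD, n = 3). The difference of 0.93 did not pass a two-sided exact permutation test (p = 0.20), and 3 libraries against 3 cannot give a p below 0.10. With all rows of each name summed, the rat rows included, the difference was 0.97 (two-sided exact permutation p = 0.10). The breeds did not overlap there, so their overlap in this ratio depends on which rows are counted.

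The 5p arms differ between the loci, so their counts can be assigned to a locus, unlike those of the shared 3p arm. How much of each 5p arm is degraded was not measured, so their ratio is not a measure of the output of each gene. miR-128-1-5p held 12 of the 32 counts of the 5p arms in QHMM, 37.5% (Clopper-Pearson 95% interval 21.1% to 56.3%), and 10 of 51 in STH, 19.6% (9.82% to 33.1%). Over all libraries it held 22 of 83 counts, 26.5% (17.4% to 37.3%), so that miR-128-2-5p had the larger count. These intervals pool the counts of several libraries and cover counting error only, not the spread between libraries. By library the share of miR-128-1-5p was 72.7% in QHMM replicate 1 and between 14.3% and 25.0% in the other libraries. The log2 ratio of miR-128-1-5p to miR-128-2-5p was -0.85 ± 1.86 in QHMM and -1.79 ± 0.461 in STH (SD, n = 3), and the difference of 0.94 lay within the spread (two-sided exact permutation p = 0.70). Without QHMM replicate 1 the difference was -0.12, so its direction rests on that library.

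miR-27 offers a comparison within the same library, since its seed overlaps that of miR-128-3p. miR-27a had 6383, 5980 and 5457 CPM in QHMM and 7546, 6094 and 5313 CPM in STH, and the breeds overlapped. miR-27b-3p had 663, 425 and 526 CPM in QHMM and 535, 521 and 418 CPM in STH, and overlapped too. Their log2 fold changes were -0.091 (standard error 0.21, adjusted p = 0.887 from edgeR) and 0.10 (standard error 0.25, adjusted p = 0.893). On average miR-27a had 2.58 times the CPM of miR-128-3p, and miR-128-3p 4.61 times that of miR-27b-3p. These factors and the ratios to miR-27 below use the chromosome 2 row of miR-128-3p alone. The chromosome 19 row, with the same sequence, had a mean of 1815 CPM, and how reads were assigned to both rows is not known.

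Relative to miR-27 the breeds were further apart in units of their spread. Per count of miR-27a and miR-27b together there were 0.446, 0.392 and 0.415 counts of miR-128-3p in the QHMM libraries, against 0.283, 0.320 and 0.297 in the STH libraries. All 3 QHMM libraries lay above all 3 STH libraries. miR-128-3p already lay apart by CPM, so this separation is not independent of that one. How many other names lie apart in their ratio to miR-27 was not counted. The log2 ratio was -1.26 ± 0.0942 in QHMM and -1.74 ± 0.0900 in STH (SD, n = 3), a difference of 0.48 or 1.39-fold (two-sided exact permutation p = 0.10, the smallest that 3 against 3 allow). The design cannot bring this test under 0.05. Against miR-27b alone, a choice made after the data were seen, the ratio was 4.74, 5.90 and 4.72 in QHMM and 4.28, 4.07 and 4.07 in STH, a log2 difference of 0.30 (two-sided exact permutation p = 0.10).

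**Figure D4:**
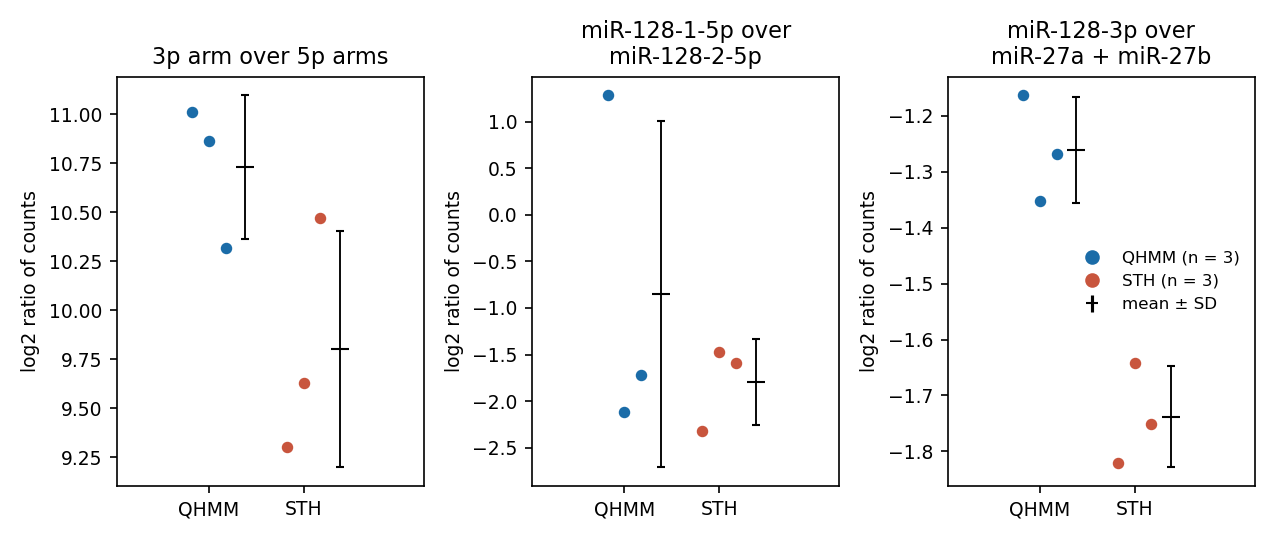
Log2 ratios of counts per library for the 3p arm over both 5p arms (left), for miR-128-1-5p over miR-128-2-5p (middle) and for miR-128-3p over miR-27a and miR-27b together (right), each on its own axis that does not start at 0. Each library is 1 point, beside the breed mean ± SD (n = 3). The breeds overlap in the left and middle panels and do not overlap in the right one, where QHMM lies at -1.35 to -1.16 and STH at -1.82 to -1.64.

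Other miRNAs tied to myostatin were set beside miR-128. Of 7 listed names 6 were tested and 1 was called, with QHMM higher, where 28 of all 1274 names tested, 2.2%, were called. Of those 28, QHMM was higher in 4. The median log2 fold change of the 6 was 0.058, where that of all 1274 names was 0.031. miR-27a and miR-27b-3p are among the listed names. The called name was miR-208b-3p, whose host is the slow myosin gene MYH7, with 142, 109 and 189 CPM in QHMM and 57.9, 65.9 and 56.9 CPM in STH, and with no overlap. Its log2 fold change was 1.27 (standard error 0.29, adjusted p = 0.0419 from edgeR), and of the 6 fits that leave out 1 library it passed in 1, without QHMM replicate 1. miR-1 and miR-206, muscle miRNAs known to bind the myostatin messenger RNA of Texel sheep, had 0.014 (adjusted p = 0.979) and -0.27 (adjusted p = 0.582), and the sign of miR-1 turned in 7 of 14 alternatives.

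Of 9 listed miRNAs of lipid and energy metabolism 8 were tested and 0 were called, where 28 of all 1274 names, 2.2%, were called. The median log2 fold change of the 8 was 0.17, where that of all names was 0.031, and 4 of the 8 lay above 0. The most abundant were miR-378a-3p, from an intron of PPARGC1B, whose sequence stands under the rat name miR-3557-5p, and miR-103a-3p, which acts on insulin sensitivity. miR-378a-3p had 24855 ± 2753 CPM in QHMM and 26685 ± 5641 CPM in STH (SD, n = 3), with a log2 fold change of -0.098 (adjusted p = 0.885 from edgeR). miR-103a-3p had 1524 ± 226 CPM in QHMM and 1130 ± 226 CPM in STH (SD, n = 3), with 0.42 (adjusted p = 0.459), close to the 0.40 of miR-128-3p. miR-33a-5p, from an intron of the sterol regulator SREBF2, was named after its values were seen: it had 96.7, 80.2 and 90.4 CPM in QHMM and 49.7, 39.2 and 51.6 CPM in STH, with 0.92 (standard error 0.27, adjusted p = 0.108).

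**Figure D5:**
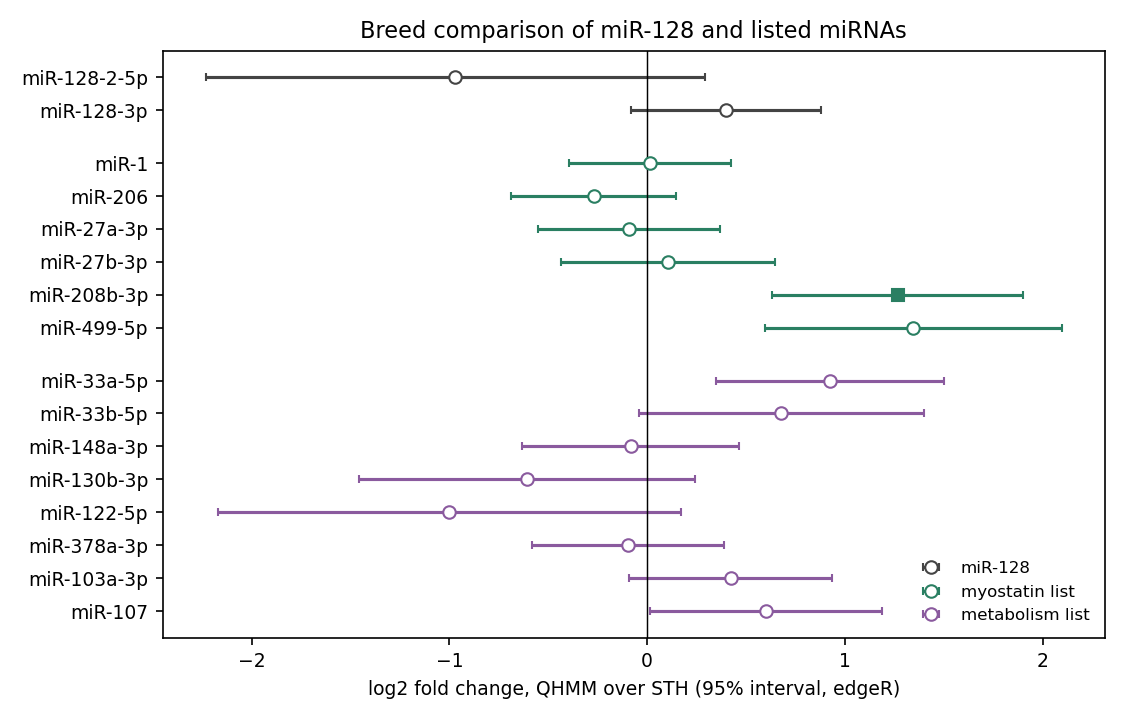
Log2 fold change of QHMM over STH with its 95% interval from edgeR for the tested members of miR-128, of the myostatin list and of the metabolism list, where the filled square marks the name past an adjusted p of 0.05 and open circles the others. miR-128-3p at 0.40 and miR-128-2-5p at -0.97 have intervals that include 0, and miR-208b-3p at 1.27 is the one filled mark.

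The miRNAs whose levels followed miR-128-3p most closely from library to library were miR-423-3p, miR-331-5p and miR-301a-3p. Likeness was the SD over the 6 libraries of the log2 ratio of their CPM to that of miR-128-3p, among 309 known names of at least 10 CPM. This SD was 0.11 for miR-423-3p, 0.11 for miR-331-5p and 0.15 for miR-301a-3p, where the median of the 309 was 0.42. miR-423-3p had 1503, 1065 and 1059 CPM in QHMM and 1070, 1056 and 859 CPM in STH, with QHMM replicate 1 highest and STH replicate 3 lowest, the same libraries as for miR-128-3p. The named miRNAs were chosen for likeness over these same 6 libraries, so shared extremes and a like direction between the breeds follow largely from the choice. Their log2 fold changes between the breeds were 0.26, 0.39 and 0.20, with adjusted p = 0.676, 0.597 and 0.785 from edgeR.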

How the data were processed

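Small RNA of longissimus muscle from 3 QHMM and 3 STH libraries had been size-selected by gel and prepared with an Ion Torrent kit for single-end sequencing. The authors deposited raw read counts per listed mature sequence. Oar_v3.1 and DESeq are listed by the submitters. Which aligner was run, and how multiply matching reads were assigned, is not given in the sources used here, so rows with 1 sequence may hold the same reads. Totals over all rows ran from 8062231 to 11282332 per library, and from 5572865 to 7930202 with 1 row per name, the base of CPM. Libraries of a breed differed by at least 80.3 chi-square units per degree of freedom, far above sampling noise.

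Breeds were compared over all names with edgeR 4.0.16 in R 4.3.3 (TMM, filterByExpr, robust quasi-likelihood test, Benjamini-Hochberg adjustment, no covariates). The standard error was derived from the F statistic. The fit was tested on simulated data. Ratios per library used 0.5 added to each count and exact permutation tests in Python 3.11.15 with scipy 1.17.1. Alternatives were other factors and filters, DESeq2 1.42.0, a replicate block, summed rows, known names only, other totals and leaving out each library. Named were the members, miR-27a and miR-27b, called members and the 2 most abundant of each list, and the 3 names most like miR-128-3p. The members and lists were chosen with earlier results of these data known. Rows were matched to list members by name, by the name without its arm or by sequence.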

Additional observations from a re-analysis of the deposited data

How the results depend on the processing

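The count of miR-128 members called, 0, was 0 under all 14 alternatives, and the log2 fold change of miR-128-3p stayed positive in all 14 (0.27 to 0.48, adjusted p 0.379 to 0.695). That of miR-128-2-5p stayed negative in the 13 that tested it (-1.44 to -0.54, adjusted p 0.399 to 0.834). The mean of 2374 CPM for miR-128-3p was 1712 CPM with the total over all rows and 3024 CPM with summed rows, by construction, and 2220 to 2509 CPM with each library left out. The locus ratio, 0.94, was -0.12 to 1.58 with each library left out, and -0.12 without QHMM replicate 1. The arm ratio, 0.93, was 0.68 to 1.26 and the ratio to miR-27, 0.48, was 0.43 to 0.52 with each library left out. The 28 calls over all names were 64 with no filter on low counts, 49 with DESeq2, 8 with at least 10 counts in every library, 6 with known names only and 16 to 35 with each library left out. Lowest were 16 without QHMM replicate 3, 16 without STH replicate 3 and 18 without STH replicate 2. The stricter filter and the known names test fewer names. miR-208b-3p, tested in both, had adjusted p = 0.0728 and 0.0778 there, against 0.0419 in the main fit (edgeR). The cause of these changes was not tested. With a replicate block 26 names were called, 22 of which are among the 28. Same-numbered libraries correlated by 0.0083, 0.20 and 0.16 in their deviations from the breed means, and every library was closest to its own number. For number 1 this value was near 0, and QHMM replicate 3 with STH replicate 1 had 0.0043. The labels do not say that equal numbers mark pairs, and whether they do was not tested. With the replicate block miR-128-3p had 0.41 (adjusted p = 0.379 from edgeR), and the count of listed miRNAs called, 1, was 0. This count was also 0 with upper-quartile factors, with known names only and with a minimum of 10 counts per library, 2 with no filter on low counts (miR-208b-3p and miR-499-5p), 3 with DESeq2 (these and miR-33a-5p) and 0 to 1 with each library left out. miR-499-5p and miR-33a-5p were named after their values were seen. Values near 0 changed sign: miR-1 was -0.028 with upper-quartile factors, -0.035 with at least 10 counts in every library, -0.00082 with the replicate block, -0.011 with summed rows, -0.0062 with known names only and -0.20 to 0.091 over the fits that leave out 1 library. Those fits gave -0.21 to 0.022 for miR-27a and -0.040 to 0.19 for miR-27b-3p. Depth limits both 5p arms, with 22 and 61 counts in all.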
